A study of Mus musculus with 9 samples.

Results

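The 33 genes described here encode enzymes and regulators of sterol and fatty acid synthesis in mouse cells. They were chosen by name, as the rows of both deposited comparison tables whose symbol matched a member. All 33 were found among 57010 gene identifiers, and all had an adjusted p in both tables. They fall into a sterol branch of 18 genes, a fatty acid branch of 11 genes and a set of 4 regulators of the transcription factors named SREBPs. RNA came from 9 libraries of mouse organoids, small tissue-like bodies grown in culture, in 3 groups of 3. The groups were small cell lung cancer organoids treated with an agent that the labels call GSK (GSK), small cell lung cancer organoids (SCLC), and normal lung organoids (Normal). The agent behind that name, its dose, the time of treatment, and the strain, sex and age of the mice are not stated in the sources at hand. Each table compared 3 libraries with 3 and held no value of a single library, so every level below is a group mean and the replicate spread enters only through the authors' standard error. Nothing in the sources says that the libraries of a group came from separate cultures or mice, so the p-values measure only the spread between these libraries.

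Sterol synthesis starts from acetyl-CoA, runs through mevalonate, the isoprenoids, squalene and lanosterol, and ends in cholesterol. Fatty acid synthesis uses the same acetyl-CoA to build palmitate, which elongases lengthen and desaturases supply with double bonds. Both pathways are driven by SREBP transcription factors, which are made as precursors in the membrane of the endoplasmic reticulum. The escort protein Scap carries them to the Golgi apparatus for cleavage when membrane sterol is low, and Insig proteins hold Scap back when sterol is plentiful. In the lung, alveolar type II cells use these pathways to make surfactant lipid.

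SREBPs bind sterol response elements, and on many of their targets they are known to act beside the factors NF-Y, which binds the CCAAT box, and Sp1, which binds the GC box. Promoter windows from 250 bases before to 50 bases after the annotated start site were given by RefSeq (GRCm38.p6) for 27 of the 33 members, as 34 windows, since 5 members had several. Fdps, Fdft1, Sqle, Scd1, Scd2 and Fads1 had no window and were not searched. The windows were searched on both strands for an SRE-like motif (TCACNCCAC), the E-box CACGTG, the GC box GGGCGG and the CCAAT box, whose reverse strand reads ATTGG. The CCAAT box occurred in 22 of the 27 members (81.5%), against 41.1% of all 27025 genes with a window and 42.9% of the 6656 such genes of mean 1000 or more in either comparison. In the sterol branch it occurred in 14 of 15 genes (93.3%), in the fatty acid branch in 5 of 8 (62.5%) and among the regulators in 3 of 4 (75.0%). The GC box was found in 22 members (81.5%), against 38.2% of all genes and 74.5% of the genes with a mean of at least 1000. The E-box was found in 6 members (22.2%), against 8.09% of all genes and 12.5% of those with a mean of at least 1000. The SRE-like letters occurred in 1 of the 27 members with a window, Hmgcs1 (3.70%), against 1.44% of all genes and 1.5% of those with a mean of at least 1000. A match is only a match of letters, and a gene with several windows had more sequence to match in.

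4 windows are shown to compare dense CCAAT matches with none: Hmgcs1 (chr13:119690101-119690400, plus strand), Mvk (chr5:114444019-114444318, plus strand), Fasn (chr11:120824498-120824797, minus strand) and Elovl6 (chr3:129532136-129532435, plus strand). They are written from 5′ to 3′ on the gene's strand, credited to RefSeq GRCm38.p6, with CCAAT boxes on either strand and the SRE-like match in capitals.
Hmgcs1: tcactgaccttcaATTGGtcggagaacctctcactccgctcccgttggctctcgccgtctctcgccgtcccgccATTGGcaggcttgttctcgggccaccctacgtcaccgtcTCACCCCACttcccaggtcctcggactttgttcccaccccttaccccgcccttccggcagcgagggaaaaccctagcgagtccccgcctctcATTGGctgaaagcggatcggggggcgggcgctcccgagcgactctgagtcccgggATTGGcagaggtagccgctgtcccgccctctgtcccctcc
Mvk: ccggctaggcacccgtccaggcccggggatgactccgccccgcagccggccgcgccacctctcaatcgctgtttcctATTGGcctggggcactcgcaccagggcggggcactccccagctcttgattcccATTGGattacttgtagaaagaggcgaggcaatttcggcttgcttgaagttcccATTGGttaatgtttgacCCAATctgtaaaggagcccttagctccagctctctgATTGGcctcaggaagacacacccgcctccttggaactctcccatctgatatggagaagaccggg
Fasn: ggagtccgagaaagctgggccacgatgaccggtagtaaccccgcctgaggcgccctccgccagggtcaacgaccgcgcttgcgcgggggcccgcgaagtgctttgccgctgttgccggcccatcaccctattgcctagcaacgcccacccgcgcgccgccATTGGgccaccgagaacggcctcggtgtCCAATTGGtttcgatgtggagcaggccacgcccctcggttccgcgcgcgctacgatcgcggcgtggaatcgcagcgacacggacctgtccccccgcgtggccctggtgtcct
Elovl6: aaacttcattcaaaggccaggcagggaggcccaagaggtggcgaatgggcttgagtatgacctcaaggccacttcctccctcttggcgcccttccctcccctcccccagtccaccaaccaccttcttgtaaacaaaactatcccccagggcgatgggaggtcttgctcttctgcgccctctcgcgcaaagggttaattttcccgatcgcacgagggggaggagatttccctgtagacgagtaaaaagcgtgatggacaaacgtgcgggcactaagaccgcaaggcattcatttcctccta
Hmgcs1 held the SRE-like match, in which the letters are TCACCCCAC, 137 bases before the start site, and 4 CCAAT boxes. Mvk held 5 CCAAT boxes, between 173 and 14 bases before the start site. Fasn held 3, of which 2 overlap in the run CCAATTGG 62 and 59 bases before it. Elovl6 held none of the 4 motifs. All 4 genes had lower transcript levels in GSK organoids, as described below.

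**Figure D1:**
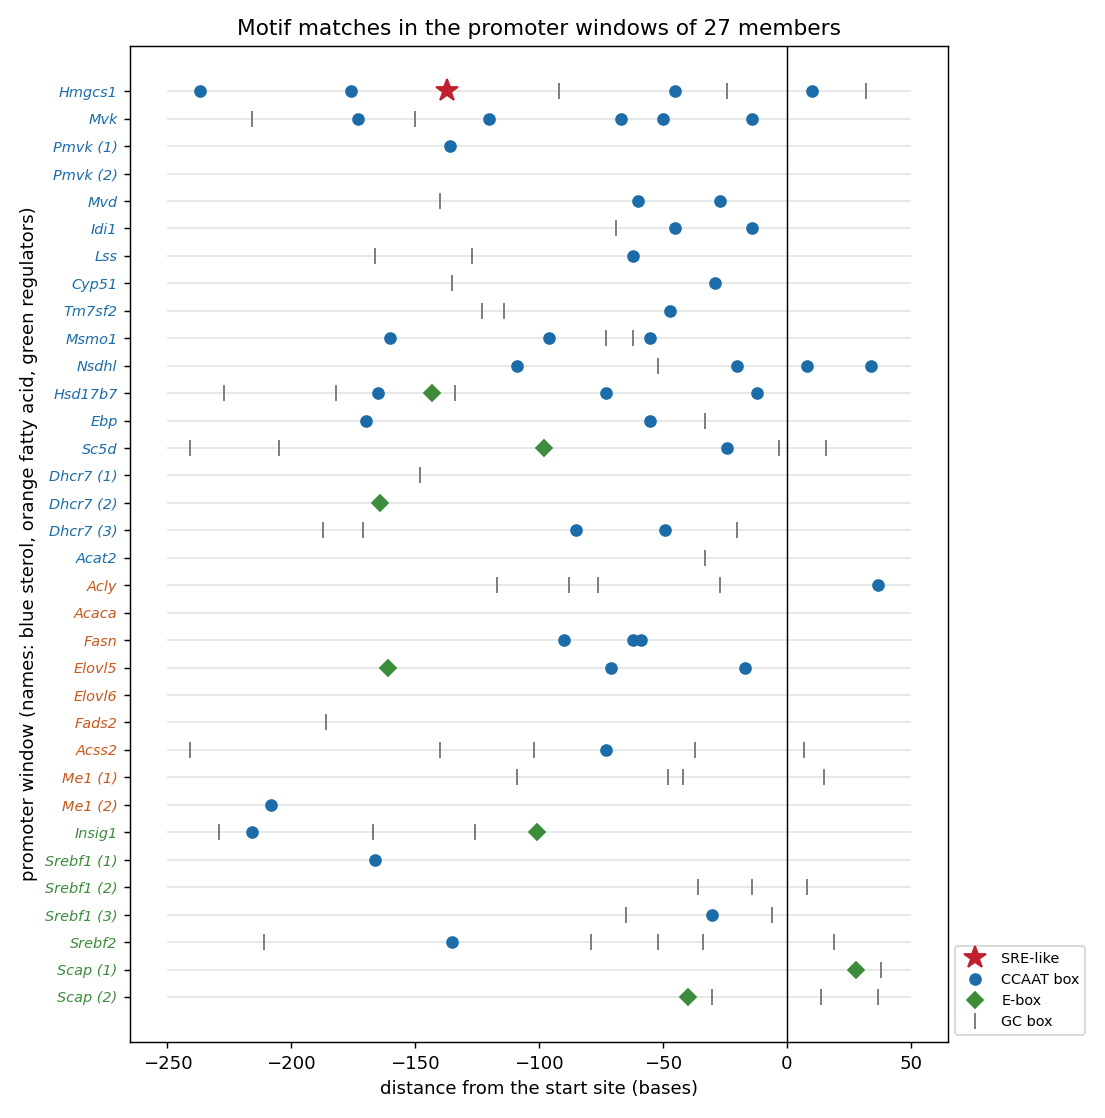
Positions of motif matches in the 34 RefSeq promoter windows of 27 members, with the distance from the start site in bases on the horizontal axis and 1 window per line; symbols mark the motif, and name colours mark the branch. CCAAT boxes appear in 22 of the 27 genes, the SRE-like match in Hmgcs1 alone, and Elovl6 and Acaca have no match.

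The tables' control for GSK was SCLC: over 13634 genes of mean 50 or more, the implied control mean and the implied SCLC mean of the other table kept a constant log2 ratio of 0.109 with an SD of 0.00837. Summed group means of normalized counts, implied from the authors' mean and fold change, were 31.9 M (M, mega) in GSK against 45.3 M in SCLC, and 42.0 M in SCLC against 44.7 M in Normal. Lineage markers differed strongly between the groups. All 10 neuroendocrine markers were higher in SCLC, with a summed level of 202241 in SCLC and 85.0 in Normal, and all 10 alveolar type II markers were lower, with 8913 in SCLC and 3275802 in Normal. All 6 alveolar type I, 5 club, 5 fibroblast and 6 macrophage markers were lower in SCLC as well, with sums of 2070, 285, 23.7 and 55.0 in SCLC and of 346628, 29490, 9060 and 4804 in Normal, as were 4 of 5 ciliated and 3 of 5 endothelial markers. Between GSK and SCLC, the summed neuroendocrine level was 113120 in GSK and 218555 in SCLC, with 5 of 10 markers lower and 2 higher. Their log2 fold changes ran from -1.95 to 3.38, with a median of -0.64. Insm1, at the low end of this range, had 17353 in GSK against 66876 in SCLC. All 6 macrophage, 5 fibroblast and 5 endothelial markers were higher in GSK, with summed levels of 24271, 13885 and 14592 in GSK and of 59.2, 25.6 and 56.7 in SCLC. Ptprc, the pan-leukocyte gene, had an implied mean of 12562 in GSK and was under 1 in SCLC, as were Adgre1, Itgam and Marco. The ciliated, club and alveolar type I sums were also higher in GSK than in SCLC (3330 against 591, 9198 against 304 and 5214 against 2230). All 5 ciliated and 4 of 5 club markers were higher. Of 6 alveolar type I markers, 4 were higher and 1 was lower, at a log2 fold change of -4.59. Of 9 alveolar type II markers tested, 6 were higher and 1 lower (median log2 fold change 2.999), with near-equal sums of 10677 in GSK and 9575 in SCLC. In bulk RNA, fewer cells of a type and less RNA per cell cannot be told apart, and the part of these other cell types in the results below was not tested.

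How the tumour organoids differed from normal lung organoids was asked by the comparison of SCLC with Normal. The lipid synthesis genes moved in both directions: 14 of 33 members fell in SCLC, 4 rose and 15 did not pass the adjusted p threshold of 0.05 per the authors' deposited table. Of all 24719 genes tested, 25.1% were called lower and 25.3% higher, and of the 7605 with a mean of at least 1000, 29.1% were lower and 38.2% higher. The members' share of 14 in 33 lower thus stands beside a background of 29.1% above this floor, which is not matched to the members' own abundance. Every member had a mean of at least 1765 normalized counts in this table. The members' median log2 fold change was -0.44 (-0.62 relative to the genes of mean 100 or more, whose median was 0.18), against 0.10 over all genes tested, from the authors' deposited table. The alveolar type II and I, club, fibroblast, macrophage and neuroendocrine markers moved with this contrast as given above, and their part was not tested. Fold changes are on the log2 scale with the authors' standard error after ±, and adjusted p-values are the authors' (Benjamini-Hochberg over all genes tested).

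In the mevalonate steps, Hmgcs1 and Pmvk were the genes with the larger falls. Hmgcs1, which condenses acetyl-CoA units into HMG-CoA, had an implied mean of 5239 normalized counts in SCLC and 14100 in Normal (-1.43 ± 0.32, adjusted p = 2.33e-05) per the authors' deposited table. Pmvk, phosphomevalonate kinase, had 1881 in SCLC and 4948 in Normal (-1.39 ± 0.25, adjusted p = 1.01e-07) per the authors' deposited table. Mvk, mevalonate kinase, fell to 63.1% of its Normal level (-0.66 ± 0.28, adjusted p = 0.0388) per the authors' deposited table. Scaling to total counts ended the call of Mvk. The other 4 genes of these steps did not pass: Acat2, a thiolase that joins acetyl-CoA units, at 0.18 ± 0.23, Mvd, the decarboxylase, at 0.04 ± 0.24, Idi1, the isomerase, at -0.73 ± 0.36, and Fdps, which makes farnesyl diphosphate, at 0.12 ± 0.31, per the authors' deposited table. After recentring on those genes, the log2 fold changes of Acat2, Mvd and Fdps were below 0.

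Lss, which cyclises squalene epoxide to lanosterol, had the largest fall of the sterol branch, with 4397 in SCLC and 13229 in Normal (-1.59 ± 0.28, adjusted p = 6.4e-08) per the authors' deposited table. Its neighbours in the pathway, Fdft1 or squalene synthase (-0.37 ± 0.25) and Sqle or squalene epoxidase (0.33 ± 0.21), did not pass per the authors' deposited table. From lanosterol to cholesterol, 4 genes fell per the authors' deposited table: the demethylase Cyp51 (-0.66 ± 0.24), the methyl oxidase Msmo1 (-1.02 ± 0.28), the dehydrogenase Nsdhl (-0.90 ± 0.31) and the desaturase Sc5d (-0.88 ± 0.25). Dhcr7, the reductase that ends one arm of the pathway, was the exception, with 4176 in SCLC and 1936 in Normal (1.11 ± 0.20, adjusted p = 2.32e-07) per the authors' deposited table. Tm7sf2 (0.12 ± 0.35), Hsd17b7 (-0.52 ± 0.26) and Ebp (0.18 ± 0.22), which encode a reductase, a ketone reductase and an isomerase of the late steps, did not pass per the authors' deposited table. Over the 18 genes of the branch, 8 fell, 1 rose and 9 did not pass, with a median of -0.59 (-0.77 relative), from the authors' deposited table. Nsdhl and Ebp lie on the X chromosome, and Xist, the RNA of the inactive X, had an implied mean of 1.76 in SCLC and 31710 in Normal. This difference in Xist runs with the whole contrast of SCLC with Normal, not with these genes alone, and its part was not tested. In the comparison of GSK with SCLC, Xist had 15.7 in GSK and 1.87 in SCLC.

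The fatty acid branch held the widest spread. Scd1, a stearoyl-CoA desaturase that makes oleate and palmitoleate, had 11359 normalized counts in SCLC and 680892 in Normal, 59.9-fold lower (-5.91 ± 0.46, adjusted p = 9.55e-37) per the authors' deposited table. Its sister gene Scd2 had 94369 in SCLC and 187203 in Normal (-0.99 ± 0.33, adjusted p = 0.00623) per the authors' deposited table. Both desaturase genes are thus lower in SCLC, by 59.9-fold and 1.98-fold, and the difference between them was not tested. The genes are similar in sequence, and how reads that match both were counted is not given. Their separate levels and fold changes are therefore uncertain here too. The alveolar type II markers, of which Sftpc had 215 in SCLC and 1891873 in Normal, moved the same way as Scd1, and their part in its difference was not tested. Fasn, the synthase that builds palmitate, had 57637 in SCLC and 155598 in Normal (-1.43 ± 0.24, adjusted p = 2.07e-08) per the authors' deposited table. Acly, which makes cytosolic acetyl-CoA from citrate (-0.44 ± 0.27), and Acaca, which makes malonyl-CoA (-0.41 ± 0.22), did not pass, and neither did the acetyl-CoA synthetase gene Acss2 (0.34 ± 0.22), per the authors' deposited table. Me1, malic enzyme, a source of NADPH, had 2375 in SCLC and 7872 in Normal (-1.73 ± 0.41, adjusted p = 9.64e-05) per the authors' deposited table.

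The elongase and polyunsaturated desaturase genes went different ways. Elovl6, which extends palmitate to stearate, had 3487 in SCLC and 827 in Normal, 4.22-fold higher (2.08 ± 0.30, adjusted p = 4.03e-11) per the authors' deposited table. Elovl5, which extends polyunsaturated chains, had 3874 in SCLC and 15576 in Normal, 4.02-fold lower (-2.01 ± 0.19, adjusted p = 3.93e-24) per the authors' deposited table. The 95% intervals of these log2 fold changes, 1.49 to 2.67 for Elovl6 and -2.38 to -1.63 for Elovl5, lie on opposite sides of 0. Fads2, the delta-6 desaturase gene, had 19046 in SCLC and 7358 in Normal (1.37 ± 0.32, adjusted p = 6.72e-05) per the authors' deposited table. For Fads1, the delta-5 desaturase gene beside it in the pathway, the values were 12940 in SCLC and 8721 in Normal (0.57 ± 0.26, adjusted p = 0.0544) per the authors' deposited table, and it passed when scaled to total counts or when adjusted over genes of mean 10 or more only. Over the 11 genes of the branch, 5 fell, 2 rose and 4 did not pass, with a median of -0.44 (-0.62 relative), from the authors' deposited table.

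Of the regulators, Scap, the sterol-sensing escort, had 6739 in SCLC and 2778 in Normal (1.28 ± 0.23, adjusted p = 8.57e-08), and Insig1, which retains it, had 5854 in SCLC and 15779 in Normal (-1.43 ± 0.32, adjusted p = 3.68e-05), per the authors' deposited table. Scap was thus higher and Insig1 lower in SCLC. The SREBP genes themselves did not pass: Srebf1 had 22945 in SCLC and 15884 in Normal (0.53 ± 0.33, adjusted p = 0.167), and Srebf2 had 22750 in SCLC and 17157 in Normal (0.41 ± 0.19, adjusted p = 0.0635), per the authors' deposited table. As deposited, the 95% intervals, -0.11 to 1.17 for Srebf1 and 0.03 to 0.78 for Srebf2, do not hold a fall past 0.11 on the log2 scale. Recentring on the genes of mean 100 or more lowers both intervals by 0.18, and this bound does not hold on that scale. Per kb of the longest annotated transcript (GENCODE M21), the highest level in SCLC was that of Scd2 with 17300 normalized counts, then Fads2 with 6046, Fasn with 5735 and Srebf1 with 5337. In Normal the order was Scd1 with 140913 per kb, Scd2 with 34318, Fasn with 15482 and Insig1 with 5851. Since the tables hold no values of single libraries, whether neighbours in these orders differ beyond their spread was not tested.

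**Figure D2:**
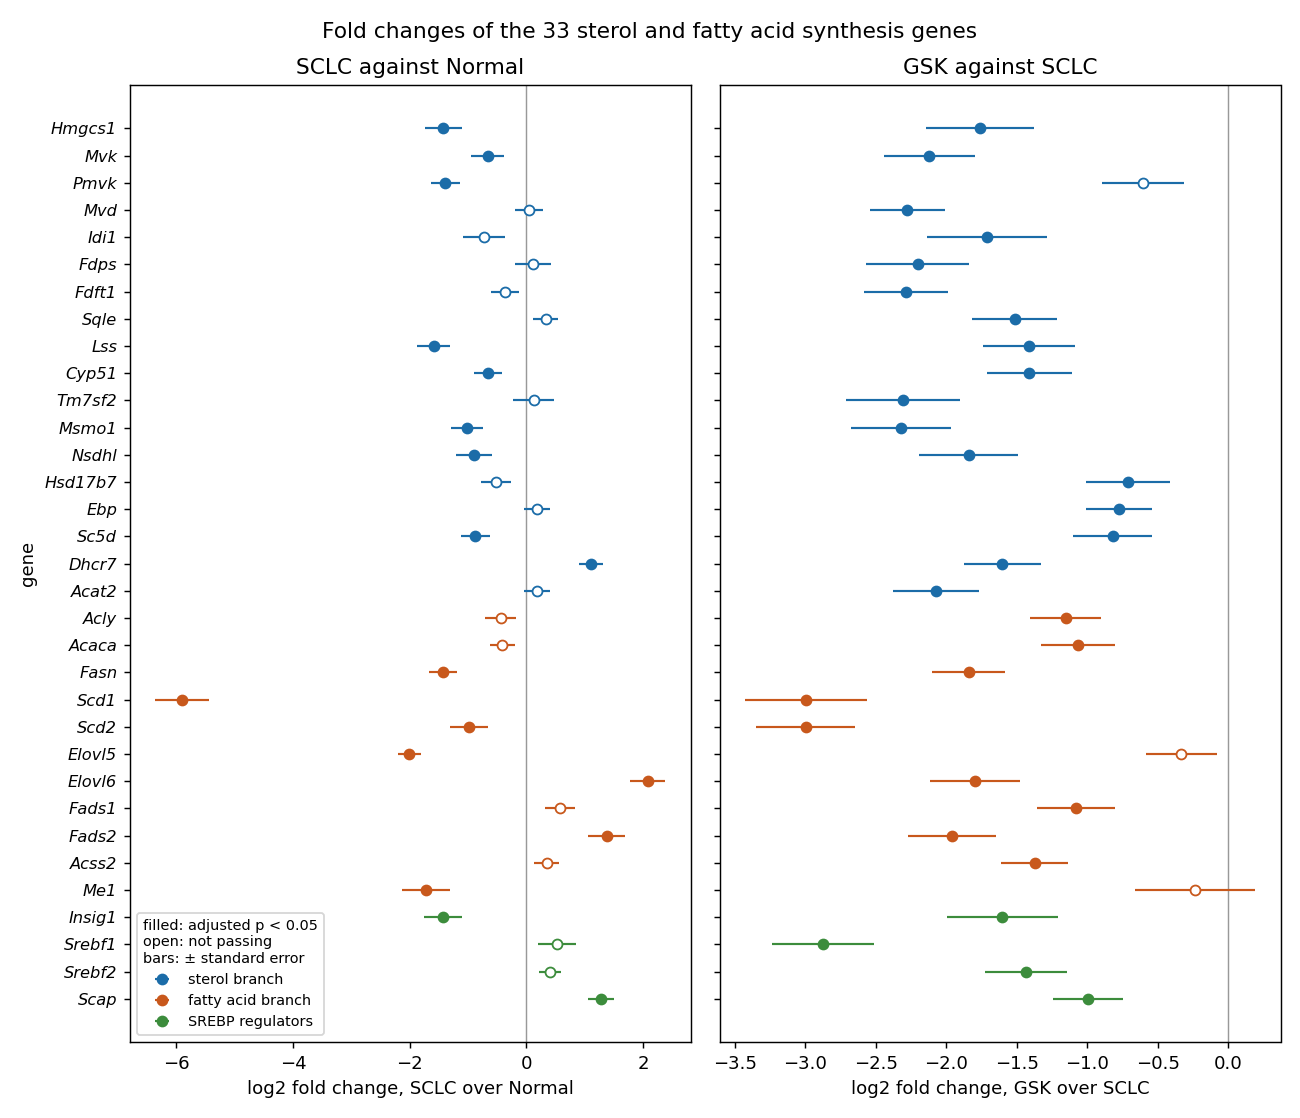
Log2 fold changes of the 33 members in SCLC against Normal (left) and GSK against SCLC (right), from the authors' deposited tables; bars are ± the authors' standard error, filled points passed an adjusted p of 0.05, and colours mark the branch. On the left 14 genes fell and 4 rose, with Scd1 at -5.91; on the right all points lie below 0 and 30 passed, while Me1 lies above 0 after recentring, on total counts and on the neuroendocrine markers, Elovl5 on total counts and on the neuroendocrine markers, and Pmvk on the neuroendocrine markers.

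The comparison of GSK with SCLC set the libraries of the treated tumour organoids beside those of SCLC. Lipid synthesis genes were lower in GSK across both branches: 30 of the 33 members fell, 0 rose and 3 did not pass (Pmvk, Elovl5 and Me1) per the authors' deposited table. Of all 28376 genes tested, 15.5% were called lower and 21.6% higher, and of the 7605 with a mean of at least 1000, 37.1% were lower and 11.2% higher. The lowest member mean in this table was 1086 normalized counts. The members' median log2 fold change was -1.60 (-1.35 relative to the genes of mean 100 or more, whose median was -0.25), against 0.24 over all genes tested and -0.44 over those with a mean of at least 1000, from the authors' deposited table. Testing for an absolute log2 fold change above 1 called 12 members lower, against 1.98% of all genes lower. That share mixes scarce and abundant genes, and for this test no share at the members' abundance was worked out. How far the members exceed an abundance-matched background in this test is therefore not known. Summed over the members, the implied level was 109534 in GSK and 404579 in SCLC. All 33 log2 fold changes were below 0 per the authors' deposited table, which held on recentring for all but Me1, on scaling to total counts for all but Elovl5 and Me1, and on the median of the 10 neuroendocrine markers, a scale chosen after seeing the data, for all but Pmvk, Elovl5 and Me1. The count of members that fell was 27, 24 and 23 on these 3 scales. Over all genes the split was 6129 higher and 4404 lower as deposited, 7245 and 3076 after recentring, 8738 and 1970 on total counts, and 9673 and 1590 on the neuroendocrine markers. The macrophage, fibroblast and endothelial markers given above moved with this contrast, with summed levels under 60 in SCLC. The treatment and the RNA of these other cell types run together in these libraries. Their parts in the falls cannot be told apart here and were not tested.

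The mevalonate steps had a median of -2.07 (-1.83 relative) in GSK, from the authors' deposited table. Hmgcs1, whose promoter window holds the SRE-like match, had 1670 in GSK and 5656 in SCLC (-1.76 ± 0.38, adjusted p = 3.04e-05) per the authors' deposited table. Mvk, with 5 CCAAT boxes, had 406 in GSK and 1766 in SCLC (-2.12 ± 0.32, adjusted p = 6.2e-10) per the authors' deposited table. Mvd had 1062 in GSK and 5142 in SCLC, 4.84-fold lower (-2.28 ± 0.27, adjusted p = 7.01e-16) per the authors' deposited table. Acat2 (-2.07 ± 0.30), Idi1 (-1.71 ± 0.42) and Fdps (-2.20 ± 0.37) fell as well per the authors' deposited table. Acat2, Mvd, Idi1 and Fdps had not passed in SCLC against Normal. Pmvk, which acts between Mvk and Mvd, had 1339 in GSK and 2037 in SCLC and did not pass (-0.60 ± 0.29, adjusted p = 0.0898) per the authors' deposited table. Its 95% interval of -1.17 to -0.03 lies wholly above the interval of Mvd, -2.80 to -1.75, and the difference between the genes was not tested.

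Fdft1, which commits farnesyl diphosphate to sterols, had 1247 in GSK and 6079 in SCLC (-2.29 ± 0.30, adjusted p = 4.1e-13) per the authors' deposited table. Sqle (-1.51 ± 0.30) and Lss (-1.41 ± 0.33) fell as well per the authors' deposited table. In the steps from lanosterol to cholesterol all 8 genes fell per the authors' deposited table, and 5 of them did so on every scale tried. Msmo1 had 742 in GSK and 3702 in SCLC (-2.32 ± 0.35, adjusted p = 9.2e-10), and Tm7sf2 had 440 in GSK and 2179 in SCLC (-2.31 ± 0.40, adjusted p = 1.13e-07), per the authors' deposited table. Nsdhl (-1.84 ± 0.35), Dhcr7 (-1.60 ± 0.27) and Cyp51 (-1.41 ± 0.30) followed per the authors' deposited table. Sc5d (-0.82 ± 0.28), Ebp (-0.78 ± 0.23) and Hsd17b7 (-0.71 ± 0.30, adjusted p = 0.0471) had the smallest of these falls per the authors' deposited table, and their calls ended on recentring, on total counts and on the neuroendocrine markers. Dhcr7, the 1 gene of the branch that was higher in SCLC than in Normal, thus fell in GSK with 1484 in GSK and 4501 in SCLC. Over the 18 genes of the branch, 17 fell and 1 did not pass, with a median of -1.74 (-1.49 relative), from the authors' deposited table.

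In the fatty acid branch 9 of 11 genes fell and 2 did not pass, with a median of -1.37 (-1.13 relative), from the authors' deposited table. The 4 desaturase genes had a median of -2.48, the lowest of the roles compared. Scd2, the most abundant member per kb in SCLC, had 12806 in GSK and 102279 in SCLC, 7.99-fold lower (-2.998 ± 0.351, adjusted p = 5.22e-16) per the authors' deposited table. Scd1 had 1539 in GSK and 12279 in SCLC, 7.98-fold lower (-2.996 ± 0.431, adjusted p = 7.16e-11) per the authors' deposited table. Of the 7605 genes with a mean of at least 1000, 0.316% had a lower fold change than Scd2 and 0.329% a lower one than Scd1. Scd1 and Scd2 are similar in sequence, and how reads that match both were counted is not given in the sources used here, so their separate levels are uncertain. Fads2 had 5292 in GSK and 20573 in SCLC (-1.96 ± 0.31, adjusted p = 3.68e-09), and Fads1 had 6627 in GSK and 13970 in SCLC (-1.08 ± 0.28, adjusted p = 0.00055), per the authors' deposited table. The call of Fads1 ended on total counts and on the neuroendocrine markers.

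Fasn had 17303 in GSK and 61939 in SCLC, 3.58-fold lower (-1.84 ± 0.26, adjusted p = 2.49e-11) per the authors' deposited table. Acaca, the step before it, fell by 1.07 on the log2 scale (SE 0.26, adjusted p = 0.000284), and Acly by 1.15 (SE 0.25, adjusted p = 2.65e-05), per the authors' deposited table. The call of Acaca ended on total counts and on the neuroendocrine markers, and that of Acly on the neuroendocrine markers. Acss2, which makes acetyl-CoA from acetate, had 1225 in GSK and 3172 in SCLC (-1.37 ± 0.24, adjusted p = 1.21e-07) per the authors' deposited table. Elovl6 had 1085 in GSK and 3766 in SCLC (-1.80 ± 0.32, adjusted p = 1.65e-07), while Elovl5 had 3321 in GSK and 4177 in SCLC and did not pass (-0.33 ± 0.25, adjusted p = 0.322), per the authors' deposited table. Their 95% intervals, -2.42 to -1.17 for Elovl6 and -0.83 to 0.17 for Elovl5, do not overlap, and the difference was not tested. Me1 had 2180 in GSK and 2561 in SCLC and did not pass either (-0.23 ± 0.42, adjusted p = 0.715) per the authors' deposited table. Pmvk, Elovl5 and Me1, the members that did not pass in GSK, were each lower in SCLC than in Normal.

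All 4 regulators fell in GSK per the authors' deposited table. Srebf1, which encodes the SREBP isoforms known for fatty acid synthesis, had 3390 in GSK and 24922 in SCLC, 7.35-fold lower (-2.88 ± 0.36, adjusted p = 5.38e-14) per the authors' deposited table. Srebf2, whose product is known for sterol synthesis, had 9076 in GSK and 24504 in SCLC, 2.7-fold lower (-1.43 ± 0.29, adjusted p = 6.73e-06) per the authors' deposited table. Their 95% intervals, -3.59 to -2.17 for Srebf1 and -2.00 to -0.86 for Srebf2, do not overlap, and the difference between the genes was not tested. Insig1, itself a known SREBP target, had 2098 in GSK and 6363 in SCLC (-1.60 ± 0.39, adjusted p = 0.000247), and Scap had 3634 in GSK and 7246 in SCLC (-0.996 ± 0.249, adjusted p = 0.000367), per the authors' deposited table. The call of Scap ended on total counts and on the neuroendocrine markers. The regulators had a median of -1.52 (-1.27 relative), from the authors' deposited table. In GSK the highest levels per kb were those of Scd2 with 2348 normalized counts, Fads1 with 1915, Acly with 1872, Srebf2 with 1788 and Fasn with 1722, so that Scd2 stood less far above the next member than in SCLC, where it had 18750 and Fads2 had 6531.

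**Figure D3:**
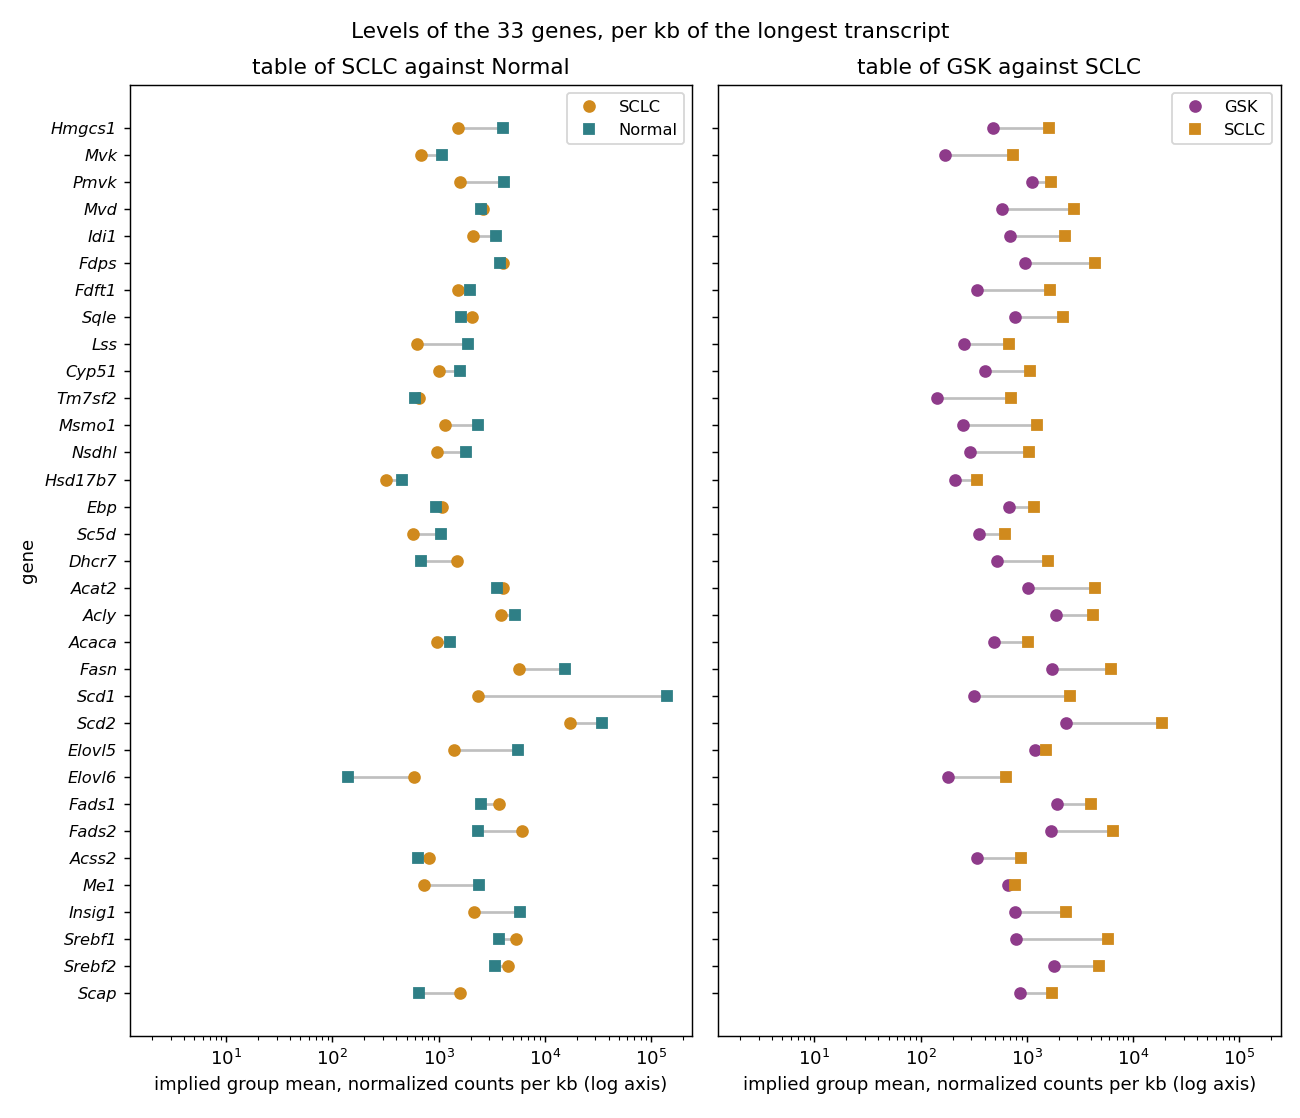
Implied group means of the 33 members in normalized counts per kb of the longest transcript (log axis), with SCLC and Normal on the left and GSK and SCLC on the right; the tables were scaled separately, so SCLC appears on both sides with slightly different values. Scd1 spans 2351 in SCLC to 140913 in Normal on the left, and on the right every GSK point lies left of its SCLC point, with Scd2 at 2348 in GSK and 18750 in SCLC; on other scales Me1, Elovl5 and Pmvk lose this order as given in the text.

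The comparisons share the SCLC libraries, so a gene's pair of fold changes is not independent and is only set side by side here. In the sterol branch 7 genes fell in both tables (Hmgcs1, Mvk, Lss, Cyp51, Msmo1, Nsdhl and Sc5d), 9 did not pass in SCLC against Normal and fell in GSK against SCLC, and Pmvk and Dhcr7 were as given above. In the fatty acid branch Fasn, Scd1 and Scd2 fell in both, and Elovl6 and Fads2 rose in SCLC and fell in GSK, as Scap did among the regulators. The overlap of a transcript with another gene can blur its count, and how the authors' counting used strand is not given in the sources used here. In GENCODE M21, 5 members shared at least 10% of their exon bases with another gene: Fdps (26.7%) and Tm7sf2 (12.1%) on the same strand, and Fdft1 (18.3%, with Ctsb), Scap (13.2%) and Hmgcs1 (12.1%) on the opposite strand.

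**Figure D4:**
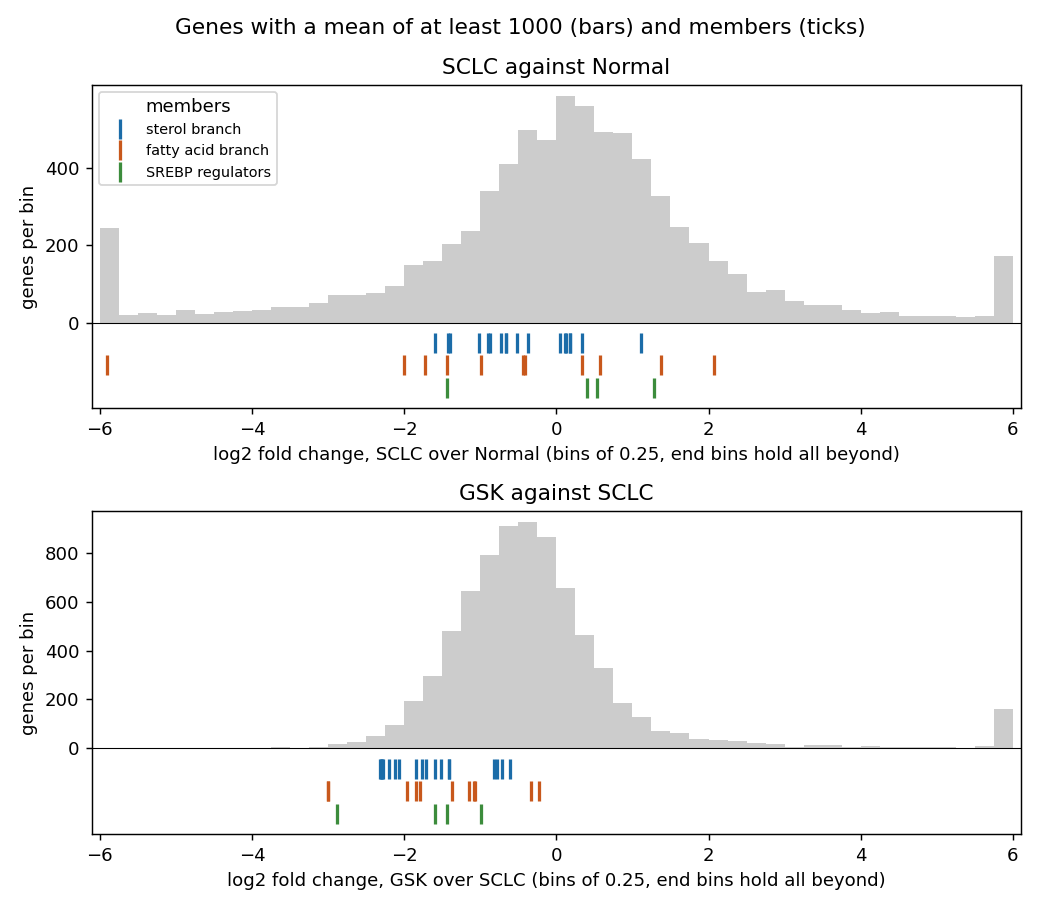
Log2 fold changes of the genes of mean 1000 normalized counts or more (grey bars, genes per bin of 0.25; the end bins hold all beyond) and of the 33 members (ticks coloured by branch), for SCLC against Normal (top) and GSK against SCLC (bottom), from the authors' deposited tables. The members spread over both sides of 0 at the top, with a median of -0.44, and lie in the lower part of the bars at the bottom, with a median of -1.60 against -0.44 for the bars.

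Other genes of these pathways were read from 6 lists that hold none of the members, 80 genes in all. Their counts in GSK stand beside 15.5% of all genes tested called lower and 21.6% higher. Among genes with a mean of at least 1000 these shares were 37.1% and 11.2%, and the lists mix abundant and scarce genes. The all-gene shares also change with the scale. They were 10.8% lower and 25.5% higher on recentring, 6.94% and 30.8% on total counts, and 5.60% and 34.1% on the neuroendocrine markers. Of 5 other sterol synthesis genes, 3 fell in GSK and 2 did not pass per the authors' deposited table. The thiolase gene Acat1 had 5646 in GSK and 15717 in SCLC (-1.48 ± 0.31, adjusted p = 1.05e-05), the ergosterol pathway homologue Erg28 had -1.02 ± 0.27, and Por, the reductase that feeds electrons to cytochrome P450 enzymes, had -0.64 ± 0.27 (adjusted p = 0.0454), per the authors' deposited table. Acat1 was put on this list by choice, and whether its product served sterol synthesis here was not tested. The calls of Erg28 and Por ended on total counts and on the neuroendocrine markers, and that of Por also on recentring. So 2 genes of the list fell on recentring, and 1, Acat1, on total counts and on the neuroendocrine markers. Lbr rose on the neuroendocrine markers. Of 9 sterol uptake and transport genes, 2 fell, 2 rose and 5 did not pass in GSK per the authors' deposited table. Tmem97, a sterol-regulated membrane protein gene, had 2446 in GSK and 6876 in SCLC (-1.49 ± 0.32, adjusted p = 2.12e-05), and the sterol carrier gene Stard4 had 2537 in GSK and 5949 in SCLC (-1.23 ± 0.34, adjusted p = 0.00151), per the authors' deposited table. The call of Stard4 ended on total counts, where 4 genes of the list rose and 1 fell, and on the neuroendocrine markers, where 5 rose and 1 fell, while recentring kept 2 each way. The lysosomal lipase gene Lipa rose to 3281 in GSK, against 361 in SCLC (3.18 ± 0.53), and the sterol transporter gene Gramd1b rose by 1.35 (SE 0.39), per the authors' deposited table. Of 13 other regulators of the SREBP pathway, 5 fell in GSK and 8 did not pass per the authors' deposited table, with the lipogenic gene Thrsp at -2.44 ± 0.45, Mid1ip1, a regulator of acetyl-CoA carboxylase, at -1.40 ± 0.30 and the SREBP-cleaving protease gene Mbtps1 at -1.30 ± 0.23. These 3 were the regulators that fell on each of the other 3 scales, where Mlx and Rnf145 lost their calls, and Erlin2 rose on total counts and on the neuroendocrine markers.

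Liver X receptors respond to sterol excess. In a list of 10 genes of these receptors, of sterol efflux and of sterol handling, more were called higher than lower in GSK. Of the 10, 6 rose, 1 fell and 3 did not pass per the authors' deposited table, and their difference from the synthesis genes was not tested. The list was drawn up by choice, and whether its genes answered to the receptors here was not tested. Abcg1 did not pass per the authors' deposited table (0.72, adjusted p = 0.141), and was called higher on the other 3 scales. On each of the other 3 scales 8 rose and 1 fell. The share of all genes called higher was 21.6% as deposited, 25.5% on recentring, 30.8% on total counts and 34.1% on the neuroendocrine markers. Apoe, an apolipoprotein that macrophages also make, had 11093 in GSK and 1104 in SCLC (3.33 ± 0.79, adjusted p = 0.000164), and the efflux pump gene Abca1 had 1475 in GSK and 149 in SCLC (3.31 ± 0.46, adjusted p = 1.01e-11), per the authors' deposited table. Ch25h, a cholesterol hydroxylase gene, was at least 115-fold higher, with 115 in GSK and a mean under the floor of 1 normalized count (3 over the group) in SCLC, from the authors' deposited table. Lpcat3, a phospholipid remodelling gene, fell (-1.26 ± 0.25, adjusted p = 5.07e-06) per the authors' deposited table. Macrophage markers rose with these genes, at a summed level of 24271 in GSK and 59.2 in SCLC, and their part was not tested. In the list of 27 other fatty acid and triglyceride synthesis genes, 8 fell and 19 did not pass in GSK per the authors' deposited table. On recentring 2 rose and 8 fell, on total counts 2 rose and 7 fell, and on the neuroendocrine markers 3 rose and 6 fell. The falls were led by Tecr, which ends each elongation cycle (-2.50 ± 0.29), the citrate carrier gene Slc25a1 (-1.84 ± 0.41) and the dehydratase gene Hacd1 (-1.77 ± 0.38) per the authors' deposited table. Of 16 fatty acid oxidation genes, 5 fell, 3 rose and 8 did not pass in GSK per the authors' deposited table. This balance turned with the scale, with 4 lower and 3 higher on recentring, 3 lower and 4 higher on total counts, and 2 lower and 5 higher on the neuroendocrine markers. The balance over all genes turned the same way. The share of all genes called lower was 15.5% as deposited, 10.8% on recentring, 6.94% on total counts and 5.60% on the neuroendocrine markers. Cpt1a, which admits fatty acids to mitochondria, rose by 1.37 (SE 0.42) and the coactivator gene Ppargc1a by 1.67 (SE 0.35), and Ppara, a fatty acid receptor, was at least 8.47-fold higher, with 8.47 in GSK and a mean under 1 in SCLC, per the authors' deposited table. Cpt1c (-1.61 ± 0.44), Acads (-1.51 ± 0.34) and Acaa2 (-1.45 ± 0.28), of which Acads and Acaa2 act in beta-oxidation, fell per the authors' deposited table, and the call of Cpt1c ended on the neuroendocrine markers. The list medians in GSK, beside 0.24 over all genes tested, were -0.64 for other sterol synthesis, 0.24 for uptake and transport, -0.35 for other regulators, 2.07 for the liver X receptor and efflux genes, -0.63 for other fatty acid and triglyceride synthesis and -0.21 for oxidation, from the authors' deposited table. The median of oxidation was above 0 on recentring (0.0336), on total counts (0.29) and on the neuroendocrine markers (0.42), and that of other regulators on total counts (0.16) and on the neuroendocrine markers (0.29). The median of other fatty acid and triglyceride synthesis was -0.12 on total counts and turned to 0.0104 on the neuroendocrine markers, and that of other sterol synthesis was -0.13 and -0.0024 on these 2 scales. Those of uptake and transport and of the liver X receptor and efflux genes stayed above 0, at 0.74 and 2.57 on total counts.

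In SCLC against Normal the same lists were mixed, beside 25.1% of all genes tested called lower and 25.3% higher. Among genes with a mean of at least 1000 these shares were 29.1% and 38.2%. Of the other sterol synthesis genes 2 rose, Acat1 (2.11 ± 0.26) and Lbr (1.24 ± 0.22), and 2 fell, Por (-1.58 ± 0.23) and Erg28 (-0.70 ± 0.19), per the authors' deposited table. Of the uptake and transport genes 2 rose and 4 fell per the authors' deposited table. Tmem97 had 6358 in SCLC and 1615 in Normal (1.98 ± 0.22), and the lysosomal sterol carrier gene Npc2 had 4920 in SCLC and 329621 in Normal (-6.07 ± 0.26), per the authors' deposited table. Of the other regulators 3 rose and 6 fell, with Thrsp at 2350 in SCLC and 5.19 in Normal (8.82 ± 0.74), Erlin2 at -2.04 ± 0.25 and Insig2 at -1.44 ± 0.22, per the authors' deposited table. Of the liver X receptor and efflux genes 7 fell and Abcg1 alone rose, with 2415 in SCLC and 63.2 in Normal (5.26 ± 0.44), per the authors' deposited table. All 6 macrophage markers fell with these genes, at a summed level of 55.0 in SCLC and 4804 in Normal, and their part was not tested. Of the other fatty acid and triglyceride genes 7 rose and 11 fell per the authors' deposited table. Elovl4, an elongase of very long chains, had 2339 in SCLC and 27.2 in Normal (6.43 ± 0.59), and Elovl1, another elongase, had 2171 in SCLC and 67600 in Normal (-4.96 ± 0.22), per the authors' deposited table. Of the oxidation genes 8 fell and Cpt1c rose (1.85 ± 0.45) per the authors' deposited table.

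**Figure D5:**
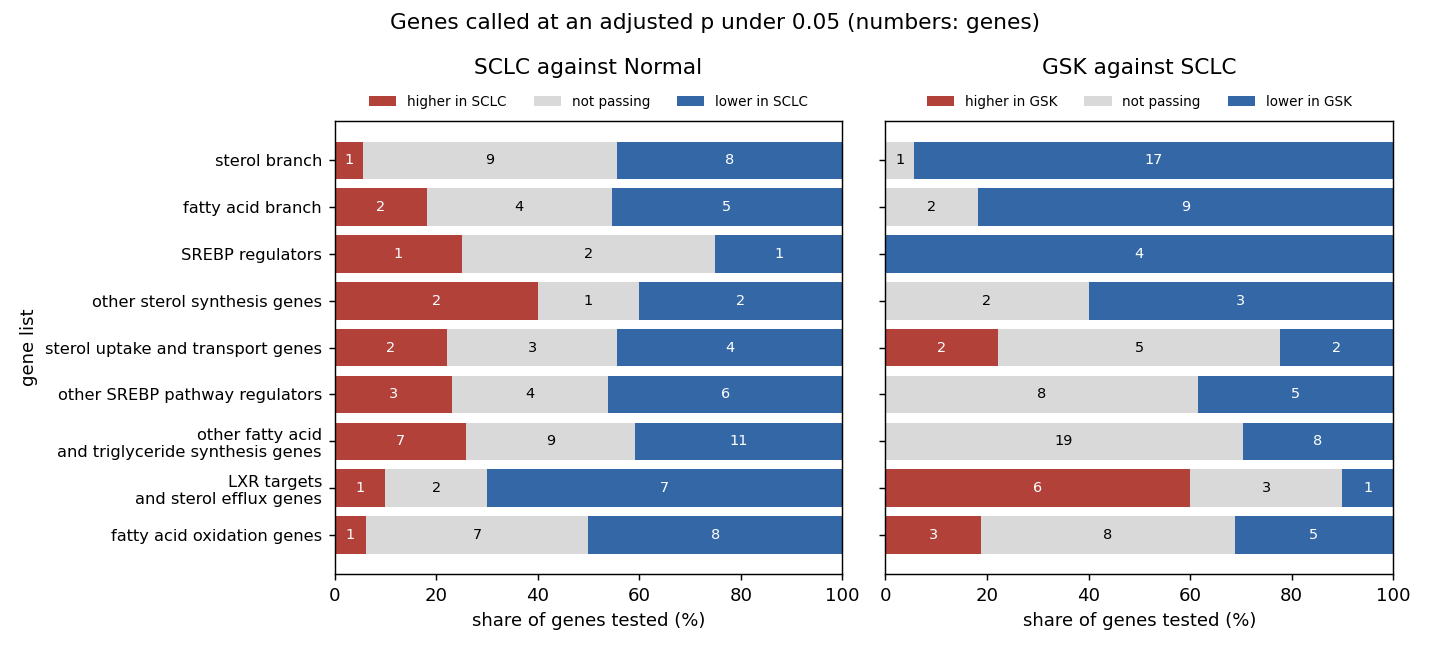
Share of the genes of each list that were called higher, not passing or lower at an adjusted p of 0.05, in SCLC against Normal (left) and GSK against SCLC (right), from the authors' deposited tables; the figures in the bars are numbers of genes and the first 3 rows are the members. On the right the sterol branch has 17 of 18 genes lower in GSK, the liver X receptor and efflux list has 6 of 10 higher, and in the other 5 lists of other genes between 2 and 8 genes are lower, with counts that change on other scales as given in the text.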

How the data were processed

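Per the labels' protocols, libraries came from a stranded mRNA kit and were read as pairs of 150 bp, and per the submitters' processing notes the aligner was STAR 2.7.9a and the build GRCm39. How reads were counted, which program fitted the comparisons and which gene models were used: not given in the sources used here. The deposited files are comparison tables of the DESeq2 results format, per the file headers. Their signal column is the authors' mean of normalized counts over 6 libraries, and their log2 columns hold the authors' fold change on the log2 scale, with a standard error. The deposited score column is the statistic, which equalled fold change over standard error to within 8.87e-08. The deposited p-value columns are raw and adjusted, and recomputing the Benjamini-Hochberg adjustment changed 0 calls. The depth of single libraries is unknown, so no counting interval is given.

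Each gene's mean and fold change imply its pair of group means (3 libraries a group), and 95% intervals are the fold change ± the normal quantile times its standard error. Genes called had an adjusted p under 0.05. A threshold test of absolute log2 fold change above 1, recentring, scaling to implied total counts (shifts of -0.09 and -0.51), other filters and a threshold of 0.01 were the alternatives. Of these, only the threshold test was run on simulated data first, beside the main call. The other alternatives were not simulated. All members are named, with up to 3 passing genes per direction of each other list by fold change and the most abundant markers. Some genes of the lists of other pathway genes are not reported here, and the counts and medians of those lists are without them. The members, lists and tests were chosen with earlier results of these data known. Transcript lengths and exon overlaps came from GENCODE M21, promoters from RefSeq, both on GRCm38, and no coordinates were joined across builds. Work was done in Python 3.11.15 with pandas 2.3.3, NumPy 2.4.6, SciPy 1.17.1 and Matplotlib 3.10.9.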

Additional observations from a re-analysis of the deposited data

How the results depend on the processing

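In GSK against SCLC, 10 of the 33 members lost their call or changed sign on at least 1 other scale: Hsd17b7, Ebp, Sc5d, Acly, Acaca, Fads1 and Scap lost their call, and Pmvk, Elovl5 and Me1 changed sign. Branch medians on total counts were -1.23 (sterol), -0.87 (fatty acid) and -1.01 (regulators), and on the neuroendocrine markers, a scale chosen after seeing the data, -1.10, -0.74 and -0.88. Log2 fold changes that changed sign, none of them called, were Me1 at 0.0135 after recentring, Elovl5 at 0.18 and Me1 at 0.27 on total counts, and Pmvk at 0.0313, Elovl5 at 0.31 and Me1 at 0.40 on the neuroendocrine markers. In SCLC against Normal, recentring gave Mvd -0.14, Fdps -0.0635, Tm7sf2 -0.0566, Ebp -0.0051 and Acat2 -0.0032, none called, and 19 members called lower in place of 14, by adding Idi1, Fdft1, Hsd17b7, Acly and Acaca. Of all genes tested, 28.1% were called lower on recentring, in place of 25.1%. Total counts also added Fads1 and Srebf2 as higher, with 26.8% of all genes called higher in place of 25.3%. The test of absolute log2 fold change above 1 left 12 members lower in GSK, and 2 lower (Scd1 and Elovl5) and 1 higher (Elovl6) in SCLC against Normal. Of all genes, it called 1.98% lower in GSK against SCLC, and 13.7% lower and 11.9% higher in SCLC against Normal. A threshold of 0.01 ended the calls of Hsd17b7 and Sc5d in GSK and of Mvk and Cyp51 in SCLC, and no filter on low means ended those of Hsd17b7 and Mvk. The cause of these moves was not tested, beyond the shifts that define each scale.

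No paired analysis was possible because the tables hold no values of single libraries. For the same reason the fits leaving out each replicate were not run, and whether 1 library sets a result was not analysed here. The tables give no depth per library, so what depth limits was not analysed here. The standard errors of the members were 0.19 to 0.46 in SCLC against Normal and 0.23 to 0.43 in GSK against SCLC. They also hold the spread between libraries, and the part of depth in them is not known.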
